A study of Mus musculus with 2 samples.

Results

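Nanog and 8 regulators of pluripotency that act with it were followed in E14TG2a mouse embryonic stem (ES) cells. The genes were chosen by name and were matched by symbol to 9 of the 28592 genes in the deposited table. They are Nanog, Sall4, Sall1, Zfp42, Dppa2, Dppa4, Utf1, L1td1 and Zfp281. The series holds 1 group of 2 replicates, E14TG2a cells grown in 2i/LIF and labelled as ground state. E14TG2a is an established male line deficient in the purine salvage gene Hprt, and 2i/LIF is a medium with inhibitors of the kinases MEK and GSK3 and the cytokine LIF. No genotype, treatment or time point was compared. Total RNA was depleted of ribosomal RNA and sequenced as strand-specific libraries, and levels are given as FPKM, the fragments of a gene divided by its transcript length in kilobases and by the mapped total. Nothing in the labels tells if the replicates came from separate cultures, and their spread may then be technical. The number of reads behind each value is not known.

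Nanog is a homeodomain transcription factor that lets ES cells renew themselves, and it works in a protein network with Pou5f1 (Oct4) and Sox2. Sall4 and Sall1 are zinc finger factors of the spalt family that bind the histone deacetylase complex NuRD, and Zfp281 is a zinc finger factor that binds Nanog and restrains its transcription. Zfp42 (Rex1) is a relative of the ubiquitous factor Yy1 and a classic marker of the naive state. Dppa2 and Dppa4 are SAP-domain proteins that bind chromatin as a pair and keep developmental promoters ready for use, and they act upstream of Dux, the activator of genes of the 2-cell embryo. Utf1 is a chromatin protein found at bivalent promoters. L1td1 is an RNA-binding protein that arose from the first open reading frame of a LINE-1 retrotransposon.

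RefSeq promoter windows on GRCm38.p6, from 250 bases before to 50 bases after a transcription start, were matched for Nanog, Zfp42, L1td1, Zfp281, Sall1 and Utf1. Sall4, Dppa2 and Dppa4 were not matched. The 250 bases before the start are shown for the 2 regulators with the highest levels and the 1 with the lowest. Capitals mark the octamer core TTTGCAT that Pou5f1 binds, in Nanog together with an adjoining Sox site, and in Utf1 the GC box GGGCGG. The windows lie at chr6:122707239-122707488 (plus strand) for Nanog, chr8:43307010-43307259 (minus strand) for Zfp42 and chr7:139943606-139943855 (plus strand) for Utf1.
Nanog: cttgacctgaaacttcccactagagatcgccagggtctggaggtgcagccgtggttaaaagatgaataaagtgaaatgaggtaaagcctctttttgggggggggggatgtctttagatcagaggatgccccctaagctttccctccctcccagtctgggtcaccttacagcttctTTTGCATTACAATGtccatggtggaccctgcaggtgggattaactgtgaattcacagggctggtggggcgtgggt
Zfp42: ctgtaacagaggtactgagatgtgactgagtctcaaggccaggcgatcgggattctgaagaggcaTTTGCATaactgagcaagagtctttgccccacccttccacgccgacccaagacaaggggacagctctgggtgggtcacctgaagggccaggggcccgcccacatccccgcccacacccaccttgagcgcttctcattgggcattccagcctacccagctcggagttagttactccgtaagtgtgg
Utf1: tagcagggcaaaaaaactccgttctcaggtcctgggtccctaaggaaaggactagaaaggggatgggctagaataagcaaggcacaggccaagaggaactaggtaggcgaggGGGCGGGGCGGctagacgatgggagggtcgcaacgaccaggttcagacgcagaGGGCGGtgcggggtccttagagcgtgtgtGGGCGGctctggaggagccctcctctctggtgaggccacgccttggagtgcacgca

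The octamer core TTTGCAT, read on both strands, occurred in the windows of 2 of the 6 matched genes, Nanog and Zfp42. It was present in 4.63% of all 32851 promoter windows of the same 300 bases. In Nanog it began at position -75 from the first of the gene's 2 listed starts and was part of TTTGCATTACAATG. The octamer core, then 1 base of any kind and the Sox site ACAATG, occurred on either strand in 2 windows of the whole set. Both windows belong to Nanog, overlap each other and hold the same site. These motifs were chosen after the sequences had been seen, and a match describes letters, not a bound site. In Zfp42 the octamer core began at position -185.

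Base composition differed between the windows. The Nanog window at the first start was 54.3% G and C with a CpG observed-to-expected ratio of 0.192, against a median of 52.7% and 0.384 over all windows. Zfp281 stood at 70.7% and 0.788, and Utf1 at 62.0% and 0.615. L1td1 had 58.7% G and C and Zfp42 57.7%, with CpG ratios of 0.559 and 0.441. The windows of Sall1 ran from 57.3% to 79.7% G and C, with CpG ratios from 0.731 to 0.819. All motifs were read on both strands. The GC box, GGGCGG or its reverse complement CCGCCC, was present for Zfp42, Zfp281, Utf1 and Sall1, though not in every Sall1 window. In Zfp42 and Zfp281 it read CCGCCC on the gene strand, left in lower case for Zfp42 above. It was not found in the windows of Nanog and L1td1, while 35.7% of all windows held it. The letters CCCCTCCCC or their reverse complement, a stretch of the G-rich motif known for Zfp281, were found for Sall1 only among the 6 genes, in each of its 3 windows, and in 6.37% of all windows. No matched window held TATAAA (13.6% of all windows) or the Yy1 core GCCATNTT (6.05%).

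All 9 regulators were detected, that is, they had an FPKM of at least 1 in both replicates. By that rule 39.4% of all genes were detected, and 50.6% of 20331 protein-coding genes. The genes are known ES cell regulators and were listed for that reason, so their detection describes the cells and is not a finding about the choice. Their median was 22.2 ± 0.714 FPKM (SD of the replicate medians, n = 2), against 0.233 over all genes and 12.7 over detected genes. Levels spanned 87.0-fold in replicate 1 and 102-fold in replicate 2 from the lowest regulator to the highest. Zfp42 and Nanog together with L1td1 held most of the summed FPKM of the set, with shares of 41.7%, 29.2% and 16.1%.

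**Figure D1:**
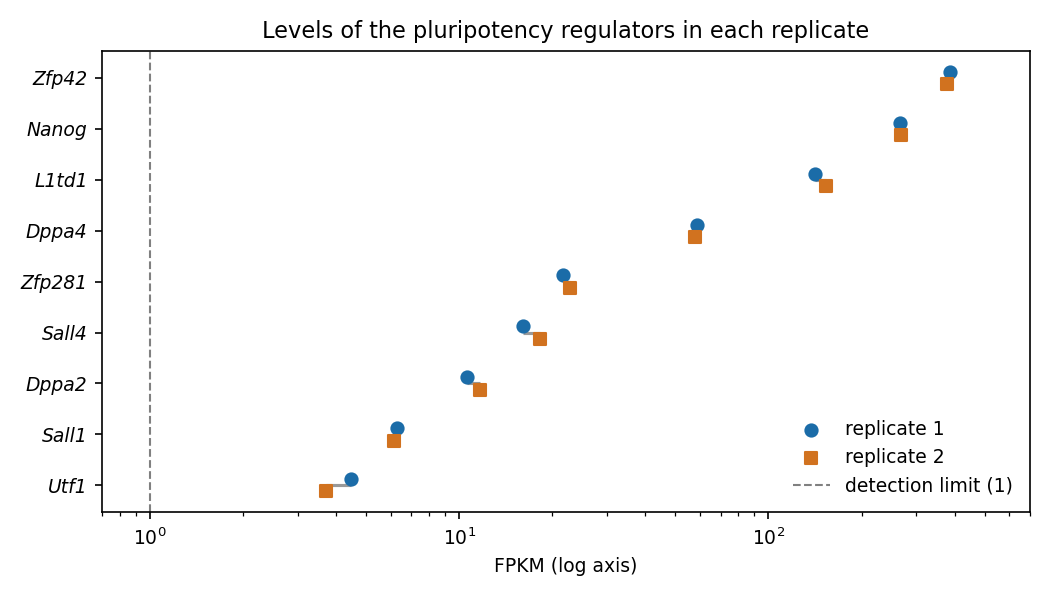
FPKM of each regulator (log axis) in replicate 1 (circles) and replicate 2 (squares), ordered by mean, with a dashed line at the detection limit of 1. Zfp42 lies at the top with 388 and 377, Utf1 at the bottom with 4.46 and 3.69, and no regulator falls below the limit.

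Nanog, the homeodomain factor at the centre of the set, stood at 267 FPKM in replicate 1 and 269 in replicate 2 (268 ± 1.44, SD, n = 2). Only 404 genes of the table were higher. The gene (ENSMUSG00000012396.11) lies on chromosome 6, from 122707489 to 122714633 on GRCm38. Pou5f1, its partner in the core network, was 3.76-fold higher than Nanog in replicate 1 and 3.52-fold in replicate 2, and Nanog in turn was 1.53-fold and 1.66-fold higher than Sox2. The mouse genome holds processed pseudogenes of Nanog, and how reads were divided between such copies is not given in the sources used here.

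Zfp42 was the highest of the 9, at 388 and 377 FPKM (382 ± 7.56), and 304 genes exceeded it. It lies on chromosome 8, from 43295067 to 43307009. Both of its values lay above both of Nanog's, by 1.45-fold and 1.40-fold. Its relative Yy1, a zinc finger factor present in most cell types, stood at 20.0 and 21.0, and the retrogene Yy2 at 4.23 and 4.80. Zfp42 therefore exceeded Yy1 by 19.4-fold and 18.0-fold, a difference of 4.16 ± 0.0741 in log2(FPKM + 1).

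L1td1, the LINE-1-derived RNA-binding protein, ranked next at 142 and 154 FPKM (148 ± 8.25). It lies on chromosome 4, from 98726754 to 98738486. Among 10 RNA-binding proteins of ES cells, 9 passed the limit, against 50.6% of all protein-coding genes. Their list median was 45.6 ± 0.146, against 1.22 over protein-coding genes. L1td1 ranked below only Dppa5a, at 7048 ± 107. Igf2bp1, which binds and stabilises messenger RNAs, stood at 54.3 ± 0.563 and the translational repressor Pum2 at 52.2 ± 1.63. Lin28a, the let-7 inhibitor, was at 26.9 and 30.3, so that L1td1 was 5.27-fold and 5.07-fold higher. Its paralogue Lin28b was lowest at 0.939 and 0.897, below the limit in both replicates, and Igf2bp2 was at 13.8 ± 0.517.

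The paired genes Dppa4 and Dppa2 lie next to each other on chromosome 16, 15982 bases apart, and differed in level. Dppa4 (48283735 to 48294292) stood at 58.6 and 58.0 FPKM (58.3 ± 0.440), and Dppa2 (48310274 to 48319513) at 10.6 and 11.7 (11.1 ± 0.780). The replicate values did not overlap. Dppa4 was 5.55-fold higher in replicate 1 and 4.97-fold in replicate 2, a difference of 2.29 ± 0.104 in log2(FPKM + 1). FPKM is scaled to transcript length, which allows a rough comparison of genes, but other biases between genes were not checked. Only RNA was measured, and the share of each protein in the pair is not known from it.

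The other genes named Dppa, which share the name but not the SAP domain, covered a wider range. Dppa5a was 122-fold and 120-fold above Dppa4. Dppa3 (Stella), which protects maternal chromatin from demethylation, was at 41.7 and 41.1. Dppa1 was the lowest at 0.152 in replicate 1 and listed at 0 in replicate 2.

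Genes of the 2-cell embryo that lie downstream of Dppa2 and Dppa4 were detected about as often as all genes. The limit was reached by 4 of the 12 that were measured, or 33.3%, against 39.4% of all genes and 50.6% of protein-coding genes. The list had a median of 0.191 over the genes' means, against 0.233 over all genes and 1.22 over protein-coding genes. In replicates 1 and 2 the list median was 0.271 and 0.176. The telomere-linked genes Zscan4f, at 6.501 and 4.67, and Zscan4c, at 5.11 and 4.72, led the list. They were followed by Zscan4d at 2.55 ± 0.0201 and Usp17lb at 1.69 and 1.30. Near-identical copies make the division of reads among Zscan4 and Usp17l genes uncertain. Duxf3, the table's symbol for Dux, stood at 0.181 and 0.0203 (after its values were seen, it was added to the named genes), and Tcstv1 and Usp17la were lowest, at means of 0.0121 and 0.0583.

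Zfp281 stood at 21.7 and 22.7 FPKM (22.2 ± 0.714) and lies on chromosome 1, from 136624901 to 136630391. It was the middle gene of the 9. Its level was close to that of Yy1, with ratios of 1.08 in both replicates.

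The 4 spalt genes split into 2 that were detected and 2 near the limit. Sall4 was highest at 16.1 and 18.3 FPKM (17.2 ± 1.54), followed by Sall1 at 6.31 and 6.14 (6.22 ± 0.120). Sall2 was at 0.912 and 1.02, on either side of the limit, and Sall3 at 0.859 and 0.787. Sall4 exceeded Sall1 by 2.55-fold and 2.98-fold, which is 1.33 ± 0.147 in log2(FPKM + 1), and Sall1 exceeded Sall3 by 7.34-fold and 7.80-fold. Sall4 lies on chromosome 2, from 168748332 to 168767201, and Sall1 on chromosome 8, from 89027242 to 89044162. The RefSeq span of the lncRNA Gm14261 overlaps that of Sall4, and the lncRNA Gm3134 overlaps Sall1. Gm14261 was at 1.68 and 1.30, Gm3134 was not matched in the table, and since the use of strand in the quantification is not given, reads in the shared stretches cannot be told apart.

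Utf1 was the lowest regulator at 4.46 and 3.69 FPKM (4.08 ± 0.540), with 8708 genes above it. It lies on chromosome 7, from 139943856 to 139945112, a span of 1257 bases, the shortest of the 9. Both values were above the limit of 1 and both were below those of Sall1. Among all genes of the table Utf1 lay at percentile 69.5, but at 22.6 among detected genes only. Nanog was 59.9-fold and 72.9-fold higher in the same libraries.

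The order of levels was Zfp42, Nanog, L1td1, Dppa4, Zfp281, Sall4, Dppa2, Sall1 and Utf1, and it was the same in each replicate. None of the 8 adjacent pairs had overlapping replicate values. The closest pair was Zfp281 and Sall4, 1.35-fold apart in replicate 1 and 1.24-fold in replicate 2, and the widest was Dppa4 and Zfp281, 2.62-fold apart in their means. With 2 values against 2, an exact two-sided permutation test cannot give a p below 0.333, so no pair was tested. Percentiles among all genes ran from 98.9 for Zfp42 and 98.6 for Nanog through 93.75 for Dppa4, 86.1 for Zfp281 and 78.9 for Dppa2 down to Utf1.

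**Figure D2:**
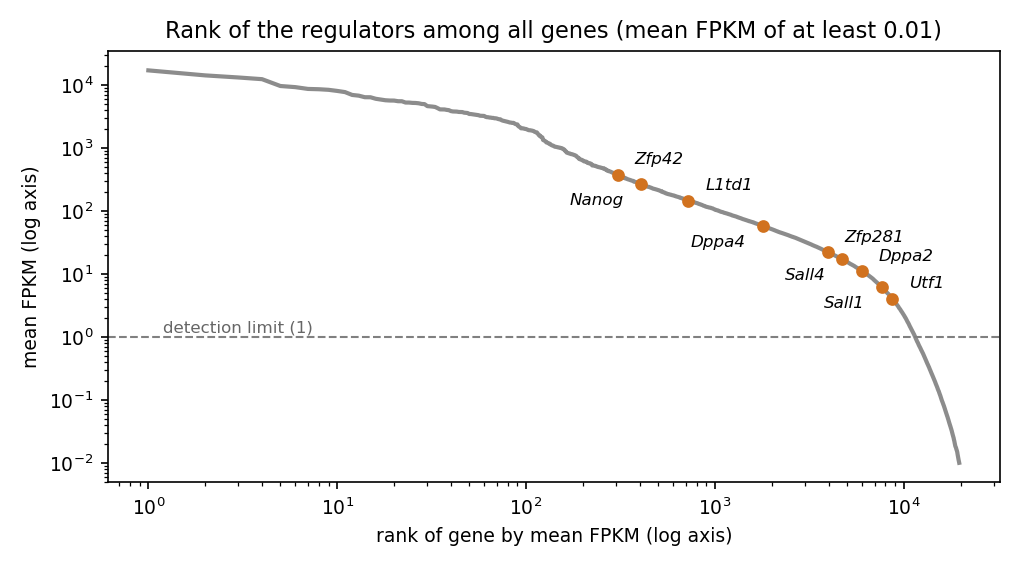
Mean FPKM of every gene at 0.01 or above against its rank (both axes log), with the regulators as orange points. Zfp42 and Nanog lie high on the curve with 304 and 404 genes above them, and Utf1 lies near the bend of the curve with 8708 above it.

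The replicates gave nearly the same values for most of the set. In FPKM, 5 of the 9 regulators were higher in replicate 2 (Nanog, L1td1, Zfp281, Sall4, Dppa2), against 48.8% of detected genes. Only Utf1 differed by 1.2-fold or more, at 1.21-fold, and 12.4% of detected genes did so. Its log2 ratio of replicate 2 to replicate 1, without a pseudocount, was -0.27, where genes within 2-fold of its level had a median absolute ratio of 0.13. Sall4 differed by 0.18 (median 0.08 at its level, with 84.7% of those genes closer to equality) and L1td1 by 0.11 (median 0.06, with 80.0% closer). Nanog differed by 0.01, and 10.4% of genes at its level were closer to equality.

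**Figure D3:**
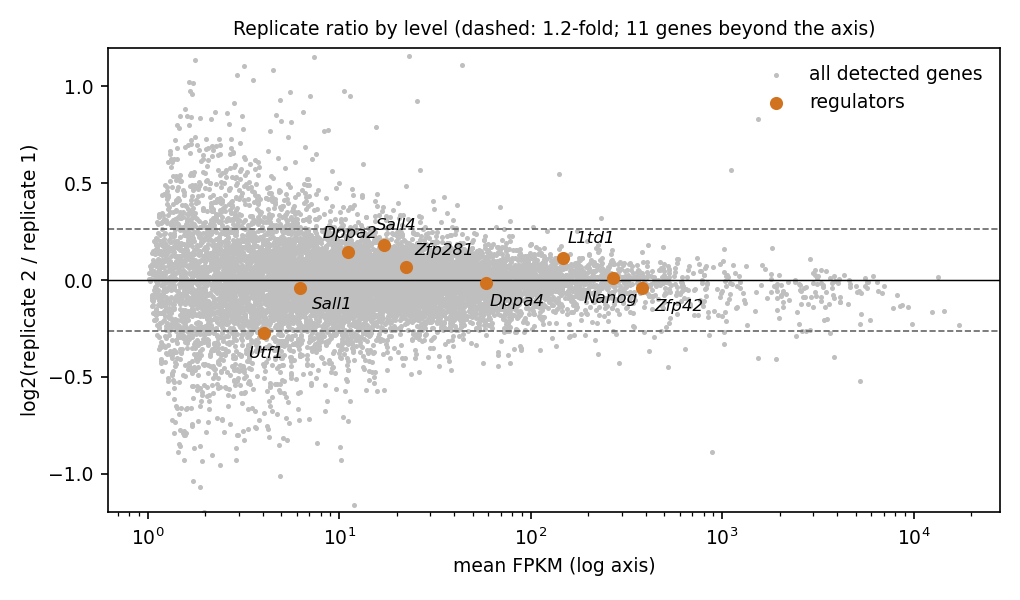
Log2 ratio of replicate 2 to replicate 1 against mean FPKM (log axis) for all detected genes (grey) and the regulators (orange), with dashed lines at 1.2-fold. Utf1, at -0.27, lies just outside the lines, the other regulators lie inside, and 11 detected genes fall beyond the axis.

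Subunits of NuRD, the remodelling and deacetylase complex that Nanog, Sall4 and Zfp281 bind, all passed the limit, 14 of 14. Of all protein-coding genes 50.6% did so. The median of the subunits was 35.2 ± 0.923, against 12.7 over detected genes. The histone-binding subunits Rbbp7 (202 ± 3.62) and Rbbp4 (93.3 ± 5.76), the deacetylase Hdac2 (160 ± 0.107) and Mta2 (68.4 ± 0.644) were highest. Gatad2b (3.36 ± 0.270) and the remodeller Chd3 (4.51 ± 0.630) were lowest. The range therefore ran from below Utf1 to between L1td1 and Nanog.

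Of 26 proteins known to associate with Nanog, 25 were matched and all of these were detected, against 50.6% of all protein-coding genes. Their median was 23.7 ± 0.200, against 12.7 over detected genes. Sall4, Sall1 and Zfp281 belong to that list. It was led by Pou5f1 (976 ± 40.8), the co-repressor Trim28 (568 ± 12.1), Hdac2 and the telomere and replication factor Rif1 (138 ± 7.55), and Sall1 and Gatad2b were its lowest genes.

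Regulators of Nanog transcription were present with 1 exception. Of 12 listed, 11 were detected, against 50.6% of all protein-coding genes. The list median was 19.7 ± 1.13, against 1.22 over protein-coding genes. Pou5f1, Sox2 (168 ± 9.38), the orphan receptor Esrrb (94.6 ± 5.39) and the tumour suppressor Trp53 (42.3 ± 1.04) were highest. The repressor Tcf7l1 (Tcf3), which GSK3 inhibition relieves, was lowest at 0.861 and 1.36, and Nr6a1, a repressor during differentiation, stood at 4.52 ± 0.410. Genes for turnover of the Nanog protein were detected too, among them the ubiquitin ligase subunits Fbxw8 at 17.0 ± 0.838 and Spop at 10.6 ± 0.866, and the deubiquitinase Usp21 at 10.04 ± 0.922.

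**Figure D4:**
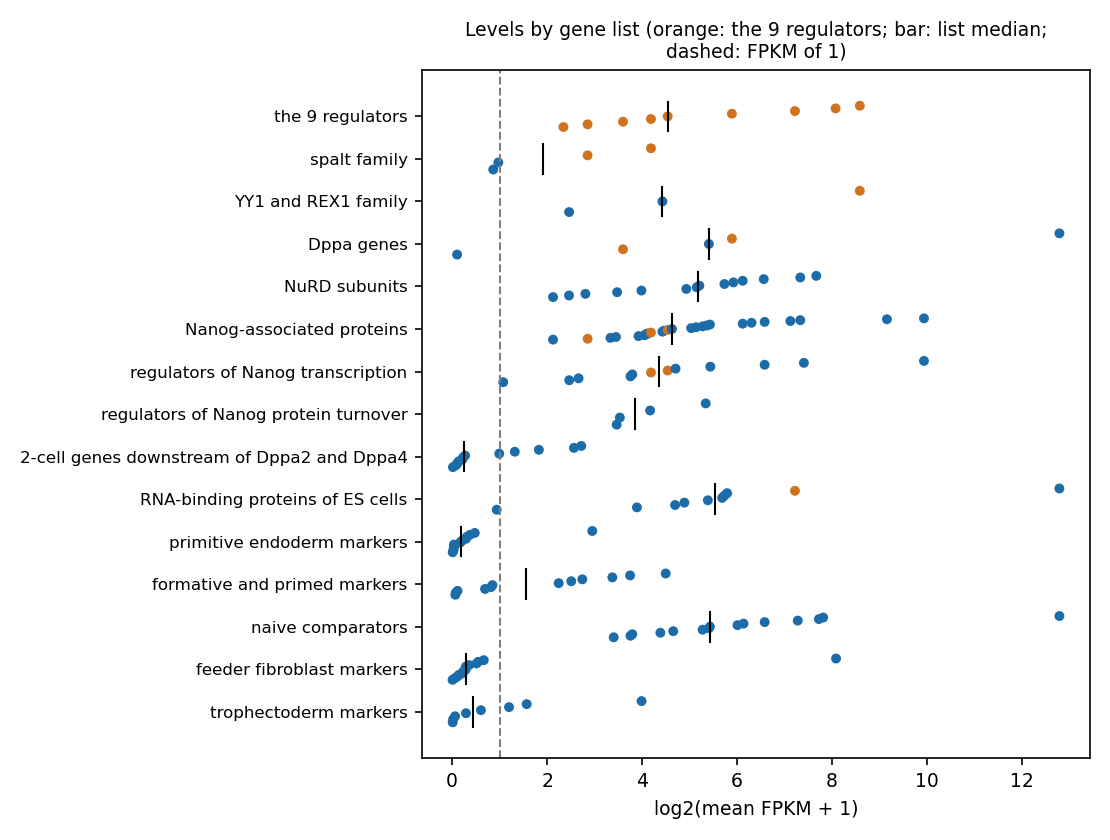
Mean levels as log2(FPKM + 1) of the genes in each list, with the regulators in orange, list medians as bars and a dashed line at an FPKM of 1. The regulators, Yy1 family, NuRD subunits, Nanog-associated proteins, regulators of Nanog transcription and turnover, and naive factors lie wholly above the line. The primitive endoderm, feeder, 2-cell and trophectoderm lists lie mostly below it.

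Other naive factors gave a comparison of level. All 15 were detected, against 50.6% of all protein-coding genes. Their median was 42.0 (44.2 and 41.1 in replicates 1 and 2), against 12.7 over detected genes. Dppa5a, Fbxo15 (224 ± 1.48), the Nodal co-receptor Tdgf1 (210 ± 6.88) and Tcl1 (154 ± 1.83) were highest, and Klf4 (12.5 ± 1.57) and Klf5 (9.57 ± 1.32) lowest. Nanog and Zfp42 exceeded every gene of this list but Dppa5a, and Sall1 and Utf1 were below every one of them.

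Markers of the primitive endoderm, the lineage that Nanog opposes in the blastocyst, were mostly below the limit. Of 12 markers 1 was detected, the laminin gene Lamb1 at 6.73 ± 0.199, against 50.6% of all protein-coding genes. The list median over the genes' means was 0.141, against 1.22 over protein-coding genes and 0.233 over all genes. It was 0.0859 and 0.142 in replicates 1 and 2. Gata6, the factor that specifies this lineage, was listed at 0 in replicate 1 and stood at 0.0173 in replicate 2, and Foxa2 at 0 and 0.0393. Hnf4a (0.393 ± 0.225), Col4a1 (0.297 ± 0.140) and Pdgfra (0.242 ± 0.0880) followed Lamb1.

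Formative and primed markers, which Zfp281 is known to promote as cells leave the naive state, were mixed. The limit was passed by 6 of 12 genes, a share near the 50.6% of all protein-coding genes. The list median was 2.27 ± 0.172, against 1.22 over protein-coding genes. The methyltransferase Dnmt3b (21.6 ± 0.0732), T (12.4 ± 0.733) and Zic2 (5.68 ± 0.126) were among the highest, and Sox3 (0.0559 and 0.0558 in the replicates) and Fgf5 (0.0488 ± 0.0210) were lowest. Of 8 trophectoderm markers 3 were detected, near the 39.4% of all genes and below the 50.6% of protein-coding genes. They were the keratins Krt8 (14.9 ± 0.781) and Krt18 (1.97 ± 0.108) and the factor Cdx2 (1.29 ± 0.240). Eomes stood at 0.523 ± 0.00488, and Hand1 and Gata3 were lowest at means of 0.0162 and 0.00861.

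Of 14 feeder fibroblast markers 1 was detected, against 50.6% of all protein-coding genes. It was Vim, which ES cells express too, at 261 and 279. Summed FPKM of the other 13 was 0.696 in the first library and 5.28 in the second. Replicate 2 had the higher value for 13 of the 14. Among them S100a4 was listed at 0 and at 1.17, Col1a2 stood at 0.0101 and 0.917, and Col3a1 at 0.0481 and 0.809. Postn and Lum had the lowest means, 0.0404 and 0.00695. The part of this difference in the higher replicate 2 values of Nanog, L1td1, Zfp281, Sall4 and Dppa2 was not tested.

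Genes that flank the regulators were mostly expressed. For each regulator the nearest protein-coding gene on either side was taken from RefSeq, which gave 14 measured genes outside the set. Of these 11 were detected, against 50.6% of all protein-coding genes. The median of the 14 was 10.4 FPKM, against 1.22 over protein-coding genes. Whether flanking genes differ from other genes was not tested. Nanog lies between the naive marker Dppa3, 77218 bases away, and the glucose transporter gene Slc2a3, 13176 bases away and at 532 and 526. Slc2a3 was the only flanking gene above Nanog. Dppa2 is followed, at 111724 bases, by Morc1, a germ line silencer of transposons, at 93.3 and 93.9.

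Zfp42 is flanked by Triml2, at 63.5 in both replicates, and by Adam26b, listed at 0 in both. Sall4 lies between Atp9a (13.6 ± 0.408), 5962 bases away, and Zfp64 (42.3 ± 1.34). Zfp281 lies between the mitotic kinesin gene Kif14 (7.15 ± 0.393) and Nr5a2 (37.7 ± 1.15), an orphan receptor of the naive network. L1td1 stood far above both neighbours, the polarity gene Patj (2.59 ± 0.408) at 7151 bases and Kank4 (1.71 ± 0.0826) at 16406 bases. Sall1 lies in a gene-poor stretch between Cyld (2.76 ± 0.00145) and Tox3 (0.156 ± 0.0224), which is 1202948 bases away. Utf1 is 2316 bases from Kndc1, which stood at 0.292 and 0.227, below the limit. The neighbours Gm52257 and Spef1l were not matched in the table.

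**Figure D5:**
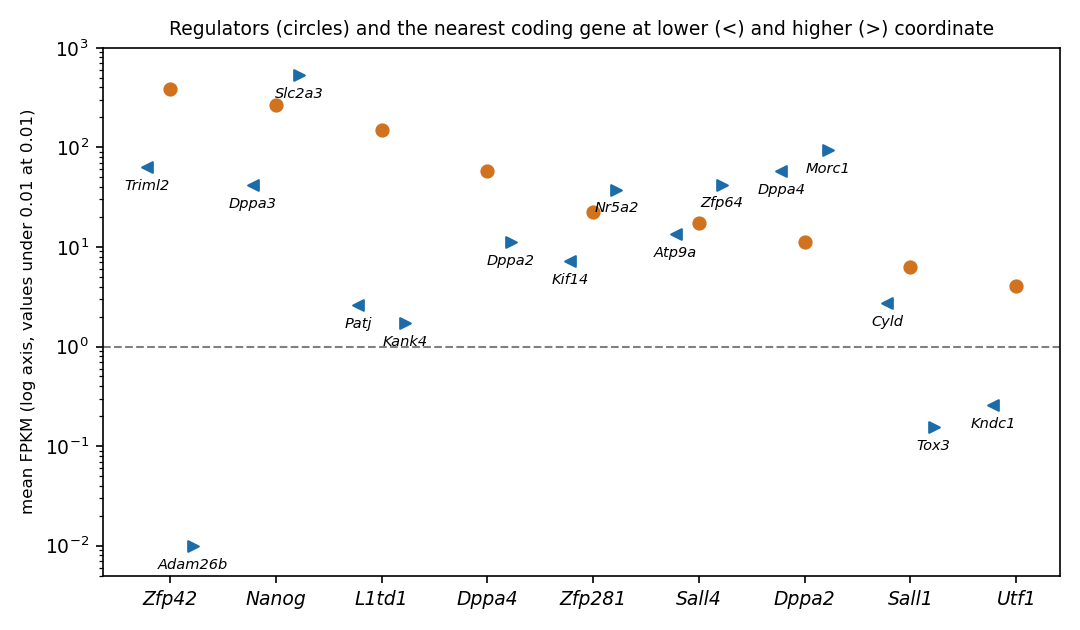
Mean FPKM (log axis) of each regulator (circles) and of its nearest coding gene at lower and higher coordinate (triangles pointing left and right), with a dashed line at 1 and values under 0.01 drawn at 0.01. Slc2a3 beside Nanog, Morc1 and Dppa4 beside Dppa2, and Nr5a2 and Zfp64 beside Zfp281 and Sall4 lie above their regulator, and Tox3, Kndc1 and Adam26b lie below the limit.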

How the data were processed

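RNA was measured in 2 replicates of E14TG2a ES cells in 2i/LIF. The authors deposited 1 table of FPKM per gene and replicate. CASAVA, TopHat2 and Cufflinks with the builds mm10 and GRCm38 were used, per the submitters' processing notes. For versions, annotation release, use of strand and library scaling, the status is "not given in the sources used here". Column names equal the sample descriptions. Of 28592 identifiers 28256 had a symbol, and spans, neighbours and promoters came from RefSeq on GRCm38.p6.

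Depth is not given. Among 2288 genes with a mean FPKM under 0.1 and above 0 in both replicates, 66.8% had replicate values in a whole-number proportion (integers to 8, tolerance 0.01 on log2), as when 1 read has about equal worth in the 2 libraries. FPKM sums were 946498 and 928174. Zeros are called listed at 0, since Cufflinks can fail to estimate a gene.

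Values are means ± SD (n = 2). Differences are on log2(FPKM + 1), which understates changes of low genes. No test was run, since 2 replicates of 1 group cannot reach 0.05 by an exact permutation test. The members and the 14 other lists were chosen with earlier results of these data known. All members were named, the 4 highest and 2 lowest genes of each list (all genes of a short list), and the nearest coding neighbours, but 2 genes that this rule names are not reported here. Alternatives covered detection limits, pseudocounts, TPM, centring, the reference genes and single replicates. Python 3.11.15, pandas 2.3.3 and numpy 2.4.6 were used, and the procedures were tested on simulated data.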

Additional observations from a re-analysis of the deposited data

How the results depend on the processing

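All 9 regulators were detected under each limit up to 1, in TPM and in each replicate alone, while limits of 5 and 10 kept 8 and 7. Rescaling to TPM raised each regulator by 1.07-fold, and the list medians became 23.7 (regulators), 3.83 (spalt), 21.9 (Yy1 family), 44.2 (Dppa), 37.5 (NuRD), 25.3 (Nanog-associated), 21.0 (transcription), 14.7 (turnover), 48.6 (RNA-binding), 44.8 (naive) and 0.399 (trophectoderm). The geometric mean of FPKM + 1, less 1, was 37.1 for the regulators, which is another measure than the median. At a limit of 0.1 the lists had 4 spalt, 7 2-cell, 6 primitive endoderm, 4 feeder and 5 trophectoderm genes, and at 5 there were 0 2-cell genes and 1 trophectoderm gene. With single replicates the 2-cell median ran from 0.176 to 0.271, the primitive endoderm median from 0.0859 to 0.142, the feeder median from 0.0236 to 0.305 and the feeder count from 1 to 2 (2 without replicate 1). The differences of Sall4 and Sall1, Dppa4 and Dppa2, and Zfp42 and Yy1 moved by no more than their SD under every alternative run. For single replicates this was fixed, since 1 of 2 values cannot lie further than the SD from their mean. TPM scales both genes alike within a replicate, so it could hardly move a difference. Only the pseudocounts could have moved one further. Percentiles of the regulators ran from 59.9 to 98.8 among coding genes and from 22.6 to 97.3 among detected genes. No alternative that was run reversed a direction. Pseudocounts could not reverse one, and neither could TPM for differences between genes within a replicate. TPM was not applied to the ratios of the replicates, so the count of regulators higher in replicate 2 holds for FPKM only. Replicate 1 had the larger FPKM sum, 946498 against 928174, so TPM would raise replicate 2 relative to it. Dppa4, 1.01-fold higher in replicate 1, would then change side. No paired analysis was possible because 1 group leaves no second group to pair samples with, and differences between genes were taken within each replicate. Leaving out genes at 0 in both replicates gave no other value, since no list held one. The unknown depth limits low values most.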

Other observations

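The zinc finger regulators were also placed among all genes whose symbol is Zfp with a number, a grouping chosen after the data were seen. There were 402 such genes, of which 327 were detected, against 39.4% of all genes. The median of those detected was 8.11 FPKM, against 12.7 over all detected genes. Zfp42 ranked first at 382 ± 7.56, ahead of Zfp207 (170 ± 2.30), the imprint-protecting factor Zfp57 (169 ± 0.808), Zfp980 (167 ± 6.39) and Zfp600 (149 ± 7.81). Zfp281 ranked 61st. Zfp980 and Zfp600 may share reads with near-identical relatives, and how these were divided is not known.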
